A study of Homo sapiens with 10 samples.

Results

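The cytosolic and mitochondrial chaperones, with the CCT chaperonin, were described in LoVo cells, a line of human colorectal cancer cells. The group was given as 39 genes, and each gene was read from the probe sets whose annotation names it alone, taking the brightest by mean log2 signal over the 10 arrays. Of the 39 genes, 35 had such a probe set. HSPA8, TCP1 and PFDN6 were annotated together with other symbols and AHSA1 was not listed, so these 4 are not reported. HSPB8 was too dim for the filter on low signal, which leaves 34 chaperone genes among the 12344 genes tested, out of 19775 genes with a probe set of their own. All cells were grown in DMEM with 10% fetal bovine serum before the groups were set apart. Control cells (C, n = 3) stayed in medium with 10% serum, serum-starved cells (SS, n = 3) were kept without serum, and ADMA-treated cells (ADMA, n = 4) were kept without serum but with 10 μM asymmetric dimethylarginine, all for 96 h. ADMA, a form of arginine with methyl groups, blocks nitric oxide synthase. Each sample is labelled as a biological replicate and was hybridized to its own Affymetrix HG-U133 Plus 2.0 array. A single cell line is described, and RNA alone was measured on these arrays.

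Chaperones bind unfolded proteins and help them fold, and many of them work in relays. HSP70 proteins take up a chain with the help of J-domain proteins and release it with exchange factors such as the HSP110 and BAG proteins, and HSP90 with its co-chaperones completes the folding of kinases and steroid receptors. The CCT chaperonin is a ring-shaped complex that folds actin and tubulin, which prefoldin delivers to it, while HSP60 with its lid HSP10, mitochondrial HSP70 and TRAP1 act inside mitochondria. Heat shock factor HSF1 binds heat shock elements in many of these promoters when unfolded proteins accumulate.

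Signals were MAS 5.0 intensities with a 2% trimmed mean of 500.1 on every array, and are given here as log2 signals. Because of this scaling a value is a share of the RNA on the array, and less RNA of a gene per cell cannot be told apart from fewer cells that carry it. The median signal was 60.7 to 73.1 in control, 87.5 to 90.7 in serum-starved and 91.9 to 98.1 in ADMA-treated cells, so the scaling enters every difference between groups. The 3′ to 5′ ratio of the ACTB control probe sets, a measure of RNA integrity, was 1.01 to 1.08, 1.13 to 1.23 and 1.02 to 1.05 in the same order, and that of GAPDH lay between 0.855 and 0.974 throughout. The signal of the 5′ control probe set for 28S ribosomal RNA was 501 to 634 in control, 1345 to 2014 in serum-starved and 795 to 1052 in ADMA-treated cells. The part of these in the results was not tested. All 12 markers of colon epithelium passed the filter, against 3 of 10 markers of fibroblasts, 2 of 8 of endothelial cells, and, of those with a probe set, 3 of 7 of leukocytes and 1 of 4 of erythroid cells. The leukocyte markers summed to 638 to 962 in control, 4239 to 4937 in serum-starved and 1656 to 2322 in ADMA-treated cells, while PTPRC, which defines leukocytes, and CD14 lay below background on all 10 arrays.

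The promoters that carry a heat shock element are shown first, since HSF1 acts through this motif. RefSeq promoters (GRCh38.p14, 250 bases before to 50 after a start site) were given for 34 of the 39 genes. A heat shock element of 3 units, spelled GAANNTTCNNGAA or TTCNNGAANNTTC on either strand, lay in the promoters of 7 of these 34 genes (20.6%), namely HSPA8, HSPD1, HSP90AA1, HSP90AB1, CHORDC1, DNAJA1 and DNAJB6, against 0.608% of all 27305 genes in the table. The 250 bases before the start site are printed for 4 of them in the direction of transcription, with every match in capitals. HSP90AB1 lies at chr6:44247693-44247942 (plus strand) and holds 2 separate elements. HSP90AA1 lies at chr14:102087045-102087294 (minus strand), CHORDC1 at chr11:90223050-90223299 (minus strand, 3 overlapping matches) and DNAJB6 at chr7:157336754-157337003 (plus strand).
HSP90AB1: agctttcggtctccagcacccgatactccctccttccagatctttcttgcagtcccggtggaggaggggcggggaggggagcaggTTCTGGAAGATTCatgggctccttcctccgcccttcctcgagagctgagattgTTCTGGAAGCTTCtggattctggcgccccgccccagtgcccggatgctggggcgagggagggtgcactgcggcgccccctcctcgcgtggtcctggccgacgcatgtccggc
HSP90AA1: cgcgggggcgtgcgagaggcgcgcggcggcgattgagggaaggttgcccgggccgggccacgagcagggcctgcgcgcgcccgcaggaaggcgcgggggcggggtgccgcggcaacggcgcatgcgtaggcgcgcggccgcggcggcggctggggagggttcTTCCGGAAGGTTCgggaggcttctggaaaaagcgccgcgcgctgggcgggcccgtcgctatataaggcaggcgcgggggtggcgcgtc
CHORDC1: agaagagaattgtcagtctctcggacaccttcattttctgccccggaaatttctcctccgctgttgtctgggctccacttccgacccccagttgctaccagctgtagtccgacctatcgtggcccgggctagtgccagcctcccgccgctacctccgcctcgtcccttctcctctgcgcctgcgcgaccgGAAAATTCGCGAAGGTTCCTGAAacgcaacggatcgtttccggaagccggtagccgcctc
DNAJB6: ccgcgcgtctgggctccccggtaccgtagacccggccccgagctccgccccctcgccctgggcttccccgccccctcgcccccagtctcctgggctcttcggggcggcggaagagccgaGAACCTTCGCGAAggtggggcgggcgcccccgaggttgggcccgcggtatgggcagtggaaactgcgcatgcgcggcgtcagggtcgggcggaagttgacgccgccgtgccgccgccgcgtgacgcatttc

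The shorter pair of units, GAANNTTC or TTCNNGAA, which every longer element contains, was found in 18 of the 34 genes (52.9%) against 16.2% of all genes. It lay in CCT2, CCT4 and TCP1 of the CCT subunits and in DNAJB1, DNAJB4, STIP1, HSPB1, HSPB8, HSPA9, BAG2 and PFDN6 beside the 7 genes named above. The E-box CACGTG, the site of MYC and related factors, was found in 3 of the 34 genes (8.82%), HSPE1, HSPD1 and HSPA9, against 8.77% of all genes. HSPE1 and HSPD1, which encode HSP10 and HSP60, start 105 bases apart on opposite strands of chromosome 2, so their promoter windows share 204 bases. The E-box counted for HSPE1 and for HSPD1 is 1 and the same site in this shared stretch. The heat shock element of HSPD1 lies before another of its start sites. The 250 bases before the HSPE1 start, chr2:197500129-197500378 (plus strand), are printed with the E-box in capitals because the pair is compared on the arrays.
HSPE1: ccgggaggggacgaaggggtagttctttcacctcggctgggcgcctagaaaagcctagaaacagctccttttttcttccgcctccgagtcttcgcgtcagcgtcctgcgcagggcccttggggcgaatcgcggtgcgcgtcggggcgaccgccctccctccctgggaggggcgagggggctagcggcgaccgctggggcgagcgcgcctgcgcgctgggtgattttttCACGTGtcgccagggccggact

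Serum starvation lowered most chaperone genes. A gene was called when limma gave an adjusted p under 0.01 and the fold was at least 1.2. Between serum-starved and control cells 24 of the 34 chaperone genes fell and 3 rose, and 7 were not called, where 27.3% of all genes tested fell and 30.3% rose. The median log2 difference was -0.48 for the chaperones and 0.07 for all genes tested. All 7 measured CCT subunits, all 6 genes of HSP90 and its co-chaperones and 4 of 5 mitochondrial chaperones fell, while the 6 J-domain genes were split into 2 that rose, 2 that fell and 2 not called. Serum-starved arrays lay wholly below control arrays for 25 of the 34 genes (33.3% of all genes tested) and wholly above for 4 (37.9%).

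With ADMA, a smaller set changed in either direction. Compared with serum-starved cells, 10 of the 34 chaperone genes rose, 5 fell and 19 were not called in ADMA-treated cells, against 15.7% of all genes tested that rose and 13.8% that fell. The median log2 difference was 0.01 for the chaperones and 0.03 for all genes tested. The rises were CCT2, CCT3, CCT4, CCT5, CCT7, TRAP1, HSPE1, HSP90AB1, HSPA14 and BAG2, and the falls were HSPH1, DNAJB1, DNAJB4, DNAJB6 and BAG1. ADMA arrays lay wholly above serum-starved arrays for 11 of the 34 genes (24.3% of all genes tested) and wholly below for 8 (21.8%).

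**Figure D1:**
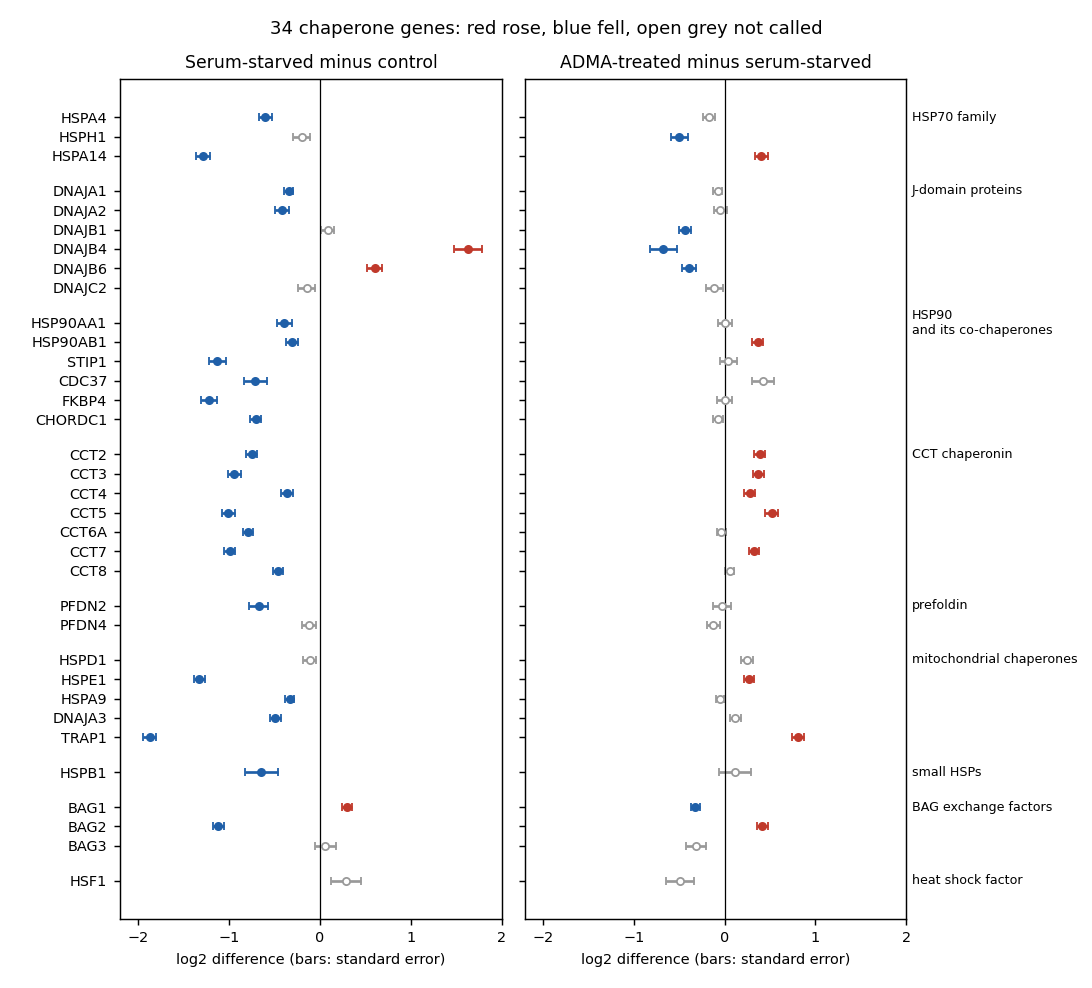
Log2 difference of each of the 34 chaperone genes, serum-starved minus control cells on the left and ADMA-treated minus serum-starved cells on the right, with bars for the standard error of the limma fit, grouped by role. Filled points passed the test (red rose, blue fell) and open points did not; the CCT subunits all lie below 0 on the left, and 5 of 7 were called above 0 on the right.

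How the arrays are scaled bears on these counts. When each array was centred on its median signal, every difference moved by -0.39 for serum starvation and by -0.12 for ADMA against serum starvation, and all genes tested then split into 16.3% that rose and 42.0% that fell, and 7.30% and 17.0%. The chaperones' median relative to that of all genes was -0.54, and 29 of the 34 genes lay below the median of all genes. Centring moves all genes alike, so it leaves both values unchanged by construction. After quantile normalization, which could change them, they were -0.37 and 28. For ADMA the chaperones' median relative to that of all genes was -0.02, again unchanged by construction after centring, and -0.04 after quantile normalization. Rising genes under ADMA dropped from 10 to 2 after centring, CCT5 and TRAP1. The other 8 kept positive differences but lost the call, among them CCT4 (0.16, adjusted p = 0.179) and BAG2 (0.30, adjusted p = 0.0184). Centring also called HSPH1, HSPD1, DNAJC2 and PFDN4 lower in serum starvation, BAG3 and HSF1 lower with ADMA, and CCT4, HSP90AB1, CDC37, DNAJC2, PFDN4, HSPB1, HSPD1, BAG1, BAG3 and HSF1 lower in ADMA-treated than in control cells.

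The CCT chaperonin was measured through 7 of its 8 subunit genes. CCT5 gave log2 signals of 13.33, 13.32 and 13.40 in control, 12.19, 12.41 and 12.43 in serum-starved and 12.76, 12.84, 12.86 and 12.97 in ADMA-treated cells. CCT7 gave 12.86, 12.93 and 12.83 in control, 11.79, 11.91 and 11.94 in serum-starved and 12.17, 12.17, 12.25 and 12.22 in ADMA-treated cells. In both genes the 3 groups did not overlap, with ADMA-treated cells between the other groups. CCT5 fell by 1.01 ± 0.07 (SE, adjusted p = 1.1e-08) in serum starvation and was 0.52 ± 0.07 (SE, adjusted p = 2.87e-05) higher with ADMA than without. Its ADMA-treated cells differed from control by -0.49 ± 0.07 (SE, adjusted p = 1.48e-05). CCT7 fell by 0.996 ± 0.06 in serum starvation (SE, adjusted p = 1.45e-09) and was 0.32 ± 0.05 higher with ADMA (SE, adjusted p = 0.000272).

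CCT2 lay at 14.09, 14.05 and 13.97 in control, 13.28, 13.23 and 13.33 in serum-starved and 13.60, 13.58, 13.68 and 13.80 in ADMA-treated cells. It was 1.69-fold lower in serum-starved than in control cells and 1.31-fold higher with ADMA than without. Over the 7 subunits the log2 differences between serum-starved and control cells ran from -1.01 (CCT5) to -0.36 (CCT4), with CCT3 at -0.94, CCT6A at -0.80 and CCT8 at -0.46. Not every subunit was called under ADMA. CCT2, CCT3, CCT4, CCT5 and CCT7 rose by 0.28 to 0.52, and CCT6A differed from serum-starved cells by -0.04 ± 0.05 and CCT8 by 0.06 ± 0.05 (SE), neither past the test. Against control, 6 of the 7 subunits remained lower and CCT4 differed by -0.09 ± 0.06 (SE). The CCT4 rise lost its call without serum-starved replicate 1 (0.25, adjusted p = 0.0119) or 2 (0.23, 0.0132), was short of 1.2-fold without ADMA replicate 4 (0.25), and it was lost with no intensity trend (adjusted p = 0.0119). After quantile normalization CCT4 was only 0.13 higher with ADMA (adjusted p = 0.0235, not called), and its fall in serum starvation was short of 1.2-fold (-0.21). The CCT2 rise was also below 1.2-fold after quantile normalization, at 0.25, and CCT3 and CCT7 lost their rises after centring alone among the 23 alternatives.

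**Figure D2:**
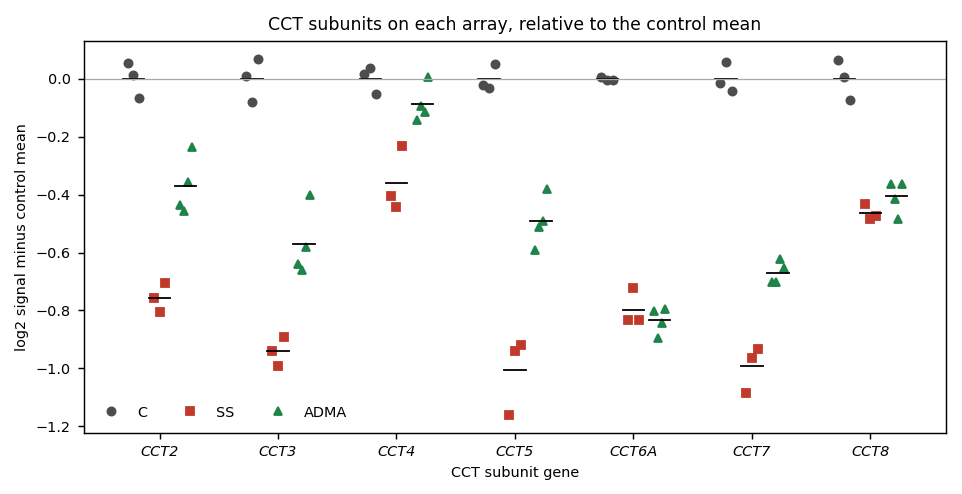
Log2 signal of 7 CCT subunit genes on each array relative to the mean of the control arrays (points: arrays; lines: group means; C, SS and ADMA have 3, 3 and 4 arrays). In CCT2, CCT3, CCT4, CCT5 and CCT7 the ADMA arrays lie above the serum-starved ones, while in CCT6A and CCT8 both groups overlap well below control.

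Prefoldin, which hands actin and tubulin chains to CCT, was measured through 2 genes. PFDN2 gave log2 signals of 11.95, 12.02 and 11.99 in control, 11.32, 11.26 and 11.34 in serum-starved and 11.06, 11.23, 11.22 and 11.62 in ADMA-treated cells. All serum-starved and ADMA arrays were below the control arrays and overlapped each other. PFDN2 fell by 0.67 ± 0.10 in serum starvation (SE, adjusted p = 4.17e-05) and differed by -0.03 ± 0.10 (SE) with ADMA. PFDN4 gave 11.55, 11.40 and 11.37 in control, 11.41, 11.35 and 11.20 in serum-starved and 11.32, 11.18, 11.13 and 11.15 in ADMA-treated cells, and its groups overlapped in both steps. It passed neither test, and its difference of -0.25 ± 0.07 (SE) between ADMA-treated and control cells was called when control replicate 3 (-0.28) or ADMA replicate 1 (-0.29) was left out.

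HSP90 and its co-chaperones fell in serum starvation without exception among the 6 measured genes. The largest decreases were those of FKBP4, an immunophilin that joins HSP90 on steroid receptors, and STIP1, the scaffold that links HSP70 to HSP90. FKBP4 gave log2 signals of 12.72, 12.74 and 12.67 in control, 11.32, 11.54 and 11.61 in serum-starved and 11.35, 11.39, 11.61 and 11.63 in ADMA-treated cells. STIP1 gave 11.73, 11.82 and 11.96 in control, 10.55, 10.86 and 10.71 in serum-starved and 10.67, 10.93, 10.61 and 10.79 in ADMA-treated cells. In both, the serum-starved and ADMA arrays overlapped and lay far below control. FKBP4 was 2.33-fold lower in serum-starved than in control cells (adjusted p = 1.36e-08) and STIP1 2.19-fold lower (adjusted p = 8e-08), while with ADMA they differed from serum-starved cells by 0.00 ± 0.08 and 0.04 ± 0.09 (SE). CHORDC1, an HSP90-binding protein, followed them with -0.71 in serum starvation and -0.07 with ADMA.

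The inducible and constitutive HSP90 genes, HSP90AA1 and HSP90AB1, both fell in serum starvation, by 0.39 ± 0.08 and 0.31 ± 0.07 (SE). HSP90AB1 gave log2 signals of 14.07, 14.06 and 14.14 in control, 13.80, 13.69 and 13.85 in serum-starved and 14.12, 14.10, 14.05 and 14.30 in ADMA-treated cells. HSP90AA1 gave 14.41, 14.30 and 14.37 in control, 14.13, 13.84 and 13.93 in serum-starved and 14.08, 13.85, 13.88 and 14.09 in ADMA-treated cells. In its brightest probe set the ADMA arrays of HSP90AB1 overlapped control, at a difference of 0.05 ± 0.06 (SE), and all 4 lay above the serum-starved arrays, by 0.36 ± 0.06 (SE, adjusted p = 0.00031). The ADMA arrays of HSP90AA1 overlapped the serum-starved ones, with a difference of 0.01 ± 0.08 (SE), and their difference from control was -0.38. The step from serum starvation to ADMA was 0.35 larger in HSP90AB1 than in HSP90AA1 (exact permutation test over arrays, two-sided, p = 0.0571, where the smallest possible value is 0.0286), a contrast chosen after the values were seen. That contrast depends on the probe set, since the dimmest of HSP90AB1 differed by 0.21 with ADMA (adjusted p = 0.0264) and the dimmest of HSP90AA1 by 0.23 (adjusted p = 0.0248), neither called. The same HSP90AB1 probe set was called lower in ADMA-treated than in control cells, at -0.39 (adjusted p = 0.000189), as was the gene after centring (-0.45, adjusted p = 6.38e-05). After quantile normalization HSP90AB1 fell short of 1.2-fold in both steps, at -0.20 and 0.19.

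CDC37, the adaptor that brings protein kinases to HSP90, gave log2 signals of 11.52, 11.72 and 11.57 in control, 10.76, 10.65 and 11.26 in serum-starved and 11.35, 11.16, 11.27 and 11.48 in ADMA-treated cells. Serum-starved replicate 3 stood apart from the other two and lay above the lowest ADMA array. CDC37 fell by 0.71 ± 0.13 in serum starvation (SE, adjusted p = 0.000164), and its difference of 0.42 ± 0.12 with ADMA missed the threshold (adjusted p = 0.0102). Without serum-starved replicate 3 that difference was 0.61 and was called (adjusted p = 0.00012), as it was without ADMA replicate 2 (0.48). Against control the difference of -0.29 was also called without serum-starved replicate 3.

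Among the HSP70 family, HSPA14, a ribosome-associated HSP70, fell most. HSPA14 gave log2 signals of 11.78, 11.80 and 11.84 in control, 10.52, 10.58 and 10.46 in serum-starved and 10.75, 10.89, 11.06 and 11 in ADMA-treated cells. The 3 groups did not overlap, and ADMA lay between the others. It was 2.44-fold lower in serum-starved than in control cells (adjusted p = 1.96e-09) and 1.32-fold higher with ADMA than without (adjusted p = 0.000446). These readings depend on the probe set. The second of HSPA14 differed by -0.12 in serum starvation (adjusted p = 0.285, not called) and was called lower with ADMA (-0.35). The third was called lower in serum starvation (-0.88) and differed by 0.07 with ADMA, which was not called. DNAJC2, the J-domain protein that works with HSPA14 at the ribosome, differed by -0.15 and -0.11 and was called in neither step.

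HSPA4 and HSPH1 encode HSP110-type exchange factors. HSPA4 gave 12.30, 12.38 and 12.28 in control, 11.65, 11.71 and 11.79 in serum-starved and 11.41, 11.54, 11.55 and 11.67 in ADMA-treated cells. HSPH1 gave 11.72, 11.78 and 11.91 in control, 11.81, 11.57 and 11.42 in serum-starved and 11.27, 11.11, 11.04 and 11.01 in ADMA-treated cells. Every serum-starved array of HSPA4 was below control, whereas serum-starved replicate 1 of HSPH1 lay among the control arrays. HSPA4 fell by 0.60 ± 0.07 in serum starvation (SE, adjusted p = 2.06e-06) and differed by -0.18 ± 0.06 with ADMA (SE, adjusted p = 0.0401), which was not called. HSPH1 differed by -0.20 ± 0.10 in serum starvation (SE, adjusted p = 0.0744), a decrease that was called without serum-starved replicate 1 (-0.31), after centring (-0.59) and with the mean of probe sets (-0.28), and fell by 0.50 ± 0.09 with ADMA relative to serum-starved cells (SE, adjusted p = 0.000431). Both were lower than control in ADMA-treated cells, at -0.78 and -0.70.

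**Figure D3:**
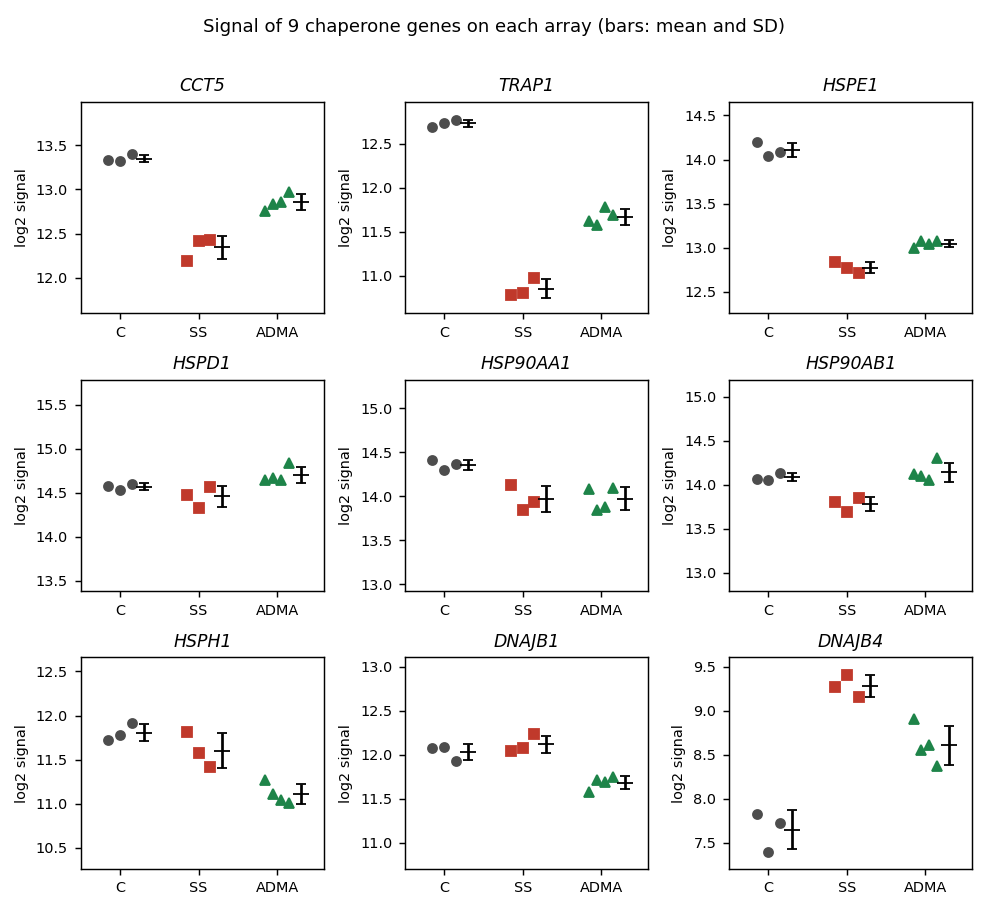
Log2 signal of 9 chaperone genes on each array (points: arrays; bars: mean and SD; C and SS n = 3, ADMA n = 4). CCT5, TRAP1 and HSPE1 show ADMA between the other groups, in these probe sets HSP90AB1 with ADMA is near control and HSP90AA1 near serum starvation, HSPH1 and DNAJB1 are lowest with ADMA, and DNAJB4 is highest in serum starvation.

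J-domain proteins, which recruit HSP70 to its clients, held the strongest rise of the set. DNAJB4 gave log2 signals of 7.83, 7.4 and 7.72 in control, 9.27, 9.41 and 9.16 in serum-starved and 8.90, 8.55, 8.61 and 8.37 in ADMA-treated cells. DNAJB6, which keeps polyglutamine proteins from aggregating, gave 10.37, 10.37 and 10.45 in control, 11.05, 11.09 and 10.87 in serum-starved and 10.72, 10.65, 10.46 and 10.60 in ADMA-treated cells. In both genes all serum-starved arrays were above all ADMA arrays, and these above all control arrays. DNAJB4 was 3.09-fold higher in serum-starved than in control cells (adjusted p = 2.46e-07), 1.60-fold lower with ADMA than in serum starvation (adjusted p = 0.0017) and still 1.94-fold above control. DNAJB6 was 1.52-fold higher in serum starvation (adjusted p = 1.12e-05) and 1.31-fold lower with ADMA (adjusted p = 0.000818), and its difference from control was then 0.21 ± 0.08 (SE), which was not called. The DNAJB4 decrease lost its call without serum-starved replicate 2 (-0.61, adjusted p = 0.0128), and the DNAJB6 increase lost its call after centring (0.21, adjusted p = 0.0911). The second probe set of DNAJB4 was called higher in serum starvation (1.15) and was not called with ADMA (-0.26, adjusted p = 0.138).

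DNAJB1, the heat-inducible partner of HSP70, gave 12.08, 12.09 and 11.93 in control, 12.04, 12.08 and 12.23 in serum-starved and 11.58, 11.71, 11.69 and 11.75 in ADMA-treated cells. Its serum-starved arrays overlapped control, at a difference of 0.09 ± 0.07 (SE, adjusted p = 0.299), and all ADMA arrays were below both other groups. It fell by 0.44 ± 0.07 with ADMA relative to serum-starved cells (SE, adjusted p = 0.000106) and differed by -0.35 from control. DNAJA1 and DNAJA2, cytosolic J-domain proteins of the DNAJA class, fell by 0.34 and 0.42 in serum starvation and differed by -0.08 and -0.05 with ADMA. After quantile normalization the DNAJA1 difference in serum starvation was -0.17, short of 1.2-fold. The second probe set of DNAJA2 differed by 0.05 in serum starvation, not called, and was called lower with ADMA (-0.35). Of the 6 genes grouped here as J-domain proteins, none rose with ADMA in the probe sets in use, against 15.7% of all genes tested. Of these 6 genes 3 fell, against 13.8%. J-domain genes outside this group were called both ways with ADMA, such as DNAJC7 (0.63) and DNAJB2 (-0.81).

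The mitochondrial chaperones contained the largest decrease of all 34 genes. TRAP1, the mitochondrial HSP90, gave log2 signals of 12.69, 12.73 and 12.77 in control, 10.78, 10.80 and 10.98 in serum-starved and 11.62, 11.58, 11.78 and 11.69 in ADMA-treated cells. Its groups were fully apart, with ADMA between control and serum starvation. TRAP1 was 3.66-fold lower in serum-starved than in control cells (-1.87 ± 0.07, SE, adjusted p = 1.72e-11), 1.75-fold higher with ADMA than without (adjusted p = 3.63e-07) and still 2.09-fold below control.

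HSPE1 and HSPD1, whose start sites are neighbours, encode the HSP10 lid and the HSP60 barrel of 1 chaperonin. HSPE1 gave 14.20, 14.04 and 14.08 in control, 12.84, 12.77 and 12.71 in serum-starved and 12.99, 13.07, 13.04 and 13.08 in ADMA-treated cells. HSPD1 gave 14.58, 14.53 and 14.60 in control, 14.48, 14.33 and 14.57 in serum-starved and 14.65, 14.67, 14.64 and 14.84 in ADMA-treated cells. All serum-starved arrays of HSPE1 were far below control. In the brightest probe set of HSPD1, control and serum-starved arrays overlapped, and all ADMA arrays lay above both. HSPE1 was 2.51-fold lower in serum-starved than in control cells (adjusted p = 7.64e-11), and HSPD1 differed by -0.11 ± 0.07 (SE, adjusted p = 0.165). The difference of HSPE1 minus that of HSPD1 was -1.22 on the log2 scale (exact permutation test over arrays, two-sided, p = 0.1, the smallest value that 3 against 3 arrays allow), again a contrast chosen after the values were seen. Of 2 such contrasts, each had a Benjamini-Hochberg adjusted p of 0.1. The contrast of HSPE1 and HSPD1 depends on the probe set. The second of HSPD1, with a mean log2 signal of 14.15, was called lower in serum starvation (-0.35, adjusted p = 0.00012). With ADMA it differed from control by -0.14 (adjusted p = 0.0417, not called). The third, a dimmer one, was called lower than control in serum starvation (-0.95) and with ADMA (-1.02).

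With ADMA, HSPE1 rose by 0.27 ± 0.05 (SE, adjusted p = 0.001), just past 1.2-fold, while the HSPD1 difference of 0.24 ± 0.06 (SE, adjusted p = 0.00747) was 1.18-fold and so was not called. HSPE1 fell short of 1.2-fold or of the test without serum-starved replicate 3 (0.24), without ADMA replicate 4 (0.26) and after quantile normalization (0.18). HSPD1 passed without serum-starved replicate 3 (0.30) or ADMA replicate 3 (0.26). After centring HSPD1 was called lower in serum starvation (-0.50) and in ADMA-treated cells against control (-0.38, from 0.13 as deposited). HSPA9, the mitochondrial HSP70, and DNAJA3, its J-domain partner, fell by 0.33 ± 0.05 and 0.49 ± 0.06 in serum starvation (SE) and differed by -0.05 and 0.12 with ADMA. After quantile normalization HSPA9 was at -0.20 in serum starvation, short of 1.2-fold.

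Of the small heat shock proteins, which hold unfolded chains without ATP, HSPB1 gave 9.45, 9.56 and 9.63 in control, 8.96, 8.79 and 8.95 in serum-starved and 9.07, 9.41, 9.14 and 8.42 in ADMA-treated cells. The 3 serum-starved arrays lay below control, and the ADMA arrays spread from below to above them, with replicate 4 lowest. HSPB1 fell by 0.65 ± 0.18 in serum starvation (SE, adjusted p = 0.00633), and the call was lost whenever any of the 6 control or serum-starved arrays was left out, with differences of -0.70 to -0.59 and adjusted p of 0.0112 to 0.026. It differed by 0.11 ± 0.17 with ADMA and by -0.53 ± 0.17 from control (SE), the latter called without ADMA replicate 2 (-0.67). HSPB8 gave 5.61, 6.32 and 6.24 in control, 6.41, 6.87 and 6.40 in serum-starved and 7.23, 5.86, 4.36 and 6.13 in ADMA-treated cells, and it was below background on 1 control and 2 ADMA arrays.

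The BAG exchange factors, which release clients from HSP70, went different ways. BAG1 gave 12.16, 12.16 and 12.16 in control, 12.49, 12.41 and 12.48 in serum-starved and 12.14, 12.13, 12.09 and 12.18 in ADMA-treated cells. BAG2, which curbs the ubiquitin ligase CHIP, gave 11.87, 11.88 and 11.94 in control, 10.85, 10.78 and 10.70 in serum-starved and 11.19, 11.17, 11.15 and 11.26 in ADMA-treated cells. The serum-starved arrays of BAG1 were above all others, and those of BAG2 below all others. BAG1 rose by 0.30 ± 0.05 in serum starvation (SE, adjusted p = 0.000145) and fell by 0.32 ± 0.05 with ADMA (SE, adjusted p = 0.000111), and its rise turned to -0.09 after centring. BAG2 was 2.18-fold lower in serum-starved than in control cells (adjusted p = 7.52e-10) and 1.33-fold higher with ADMA than without (adjusted p = 5.19e-05).

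BAG3, which links HSP70 to selective autophagy, gave 11.60, 11.44 and 11.67 in control, 11.76, 11.61 and 11.52 in serum-starved and 11.47, 11.26, 11.01 and 11.51 in ADMA-treated cells. HSF1, the factor that drives the heat shock response, gave 8.25, 8.38 and 8.32 in control, 8.72, 8.47 and 8.63 in serum-starved and 8.41, 8.25, 8.08 and 7.74 in ADMA-treated cells. Serum-starved and control arrays of BAG3 overlapped, whereas those of HSF1 did not, and in both genes all ADMA arrays were below all serum-starved ones. BAG3 differed by 0.06 ± 0.11 in serum starvation and by -0.31 ± 0.11 with ADMA (SE, adjusted p = 0.0268). HSF1 differed by 0.29 ± 0.16 and by -0.49 ± 0.15 (SE, adjusted p = 0.0172), and the latter was called without ADMA replicate 1 (-0.58). These HSF1 readings depend on the probe set. A dimmer one of HSF1 differed by -0.24 in serum starvation (adjusted p = 0.42) and by 0.12 with ADMA (adjusted p = 0.726), neither called. Among the 6 tested genes with a heat shock element of 3 units, HSP90AA1, HSP90AB1, CHORDC1 and DNAJA1 fell in serum starvation, DNAJB6 rose and HSPD1 was not called. Of all 34 chaperone genes 24 fell and 3 rose, against 27.3% and 30.3% of all genes tested. Whether genes with the element differ from the other chaperone genes was not tested.

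Between ADMA-treated and control cells, which differ in serum as well as ADMA, 22 of the 34 chaperone genes were lower, 1 was higher and 11 were not called, against 23.2% of all genes tested that were lower and 26.6% that were higher. The higher gene was DNAJB4. The median log2 difference was -0.41 for the chaperones and 0.07 for all genes tested, and 26 of the 34 genes had ADMA arrays wholly below control (29.0% of all genes tested) and 3 wholly above (32.9%). These 3 comparisons share arrays, so their calls are given side by side as a description. For 12 genes, among them HSPA4, FKBP4, STIP1, CCT6A and CCT8, serum starvation lowered the signal, ADMA was not called against it, and ADMA-treated cells were lower than control. For 8 genes, HSPA14, CCT2, CCT3, CCT5, CCT7, HSPE1, TRAP1 and BAG2, the same held except that ADMA was called above serum starvation. HSP90AB1 and CCT4 fell, rose and were not called against control, and HSPH1 and DNAJB1 were lower in ADMA-treated cells than in both other groups. After quantile normalization DNAJA3 (-0.26) and DNAJB1 (-0.24) were no longer called lower than control.

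The spread within groups was small for these bright genes, with a median SD of 0.09 on the log2 scale against 0.14 over all genes tested, and HSPB1 had the largest, 0.26. Other probe sets of the same genes give a second reading. Of 34 other tested probe sets, belonging to 22 of the chaperone genes, 25 had the same call as the probe set in use for serum starvation, 8 were called when the other was not or the reverse, and 1 had the opposite call. For ADMA against serum starvation the counts were 22, 11 and 1, and for ADMA against control 27, 5 and 2. In serum starvation the opposite call came from a dim probe set of HSPA9 with a mean log2 signal of 6.69, which rose by 2.049. For ADMA against serum starvation it came from the second probe set of HSPA14, which fell by 0.35. Against control, that dim probe set of HSPA9 (1.43) and a dim one of BAG2 (1.65, mean log2 signal 6.83) were called higher with ADMA. The probe sets in use of both genes were called lower there.

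For CCT2 and CCT5 the other probe set repeated both calls, with 0.52 and 0.42 for ADMA against serum starvation. CCT4 had a dimmer probe set at -0.12 and -0.13, called in neither step. The second HSP90AB1 probe set gave -0.46 and 0.36, both called, and the third -0.59, called, and 0.21, not called. The other 3 of HSP90AA1 gave -0.76 to -0.37 in serum starvation, all called, and -0.10, 0.11 and 0.23 with ADMA, none called. STIP1 and FKBP4 repeated their falls at -1.53 and -1.59. HSPD1, not called in its brightest probe set, was called lower in serum starvation in both other tested probe sets. The second gave -0.35 and the third, a dimmer one, -0.95. HSPA4 was called higher with ADMA in its dimmest tested probe set (0.93) and not in the others. Taking the mean of all probe sets of a gene, dim ones included, ended the falls in serum starvation of TRAP1 (-0.69, adjusted p = 0.323), BAG2 (0.14), CHORDC1 (0.04), CCT8 (0.34), HSPA9 (0.20), CCT4 (-0.24), DNAJA2 (-0.19) and HSPB1 (-0.65), the fall with ADMA of DNAJB4 (-0.47), and the rises with ADMA of TRAP1 (0.10), HSPA14 (0.04), BAG2 (0.34) and CCT4 (0.07). It also called DNAJC2 higher in serum starvation, at 1.12. Against control it ended the calls of TRAP1 (-0.60), BAG2 (0.48), CCT8 (0.23), CHORDC1 (-0.15) and HSPA9 (-0.06) in ADMA-treated cells, and called HSPD1 higher (0.48). With shared probe sets left out, HSPH1 (-0.46, adjusted p = 0.0822) and BAG1 (-0.25, adjusted p = 0.0297) were no longer called lower with ADMA, nor BAG1 higher in serum starvation (0.30, adjusted p = 0.0106).

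**Figure D4:**
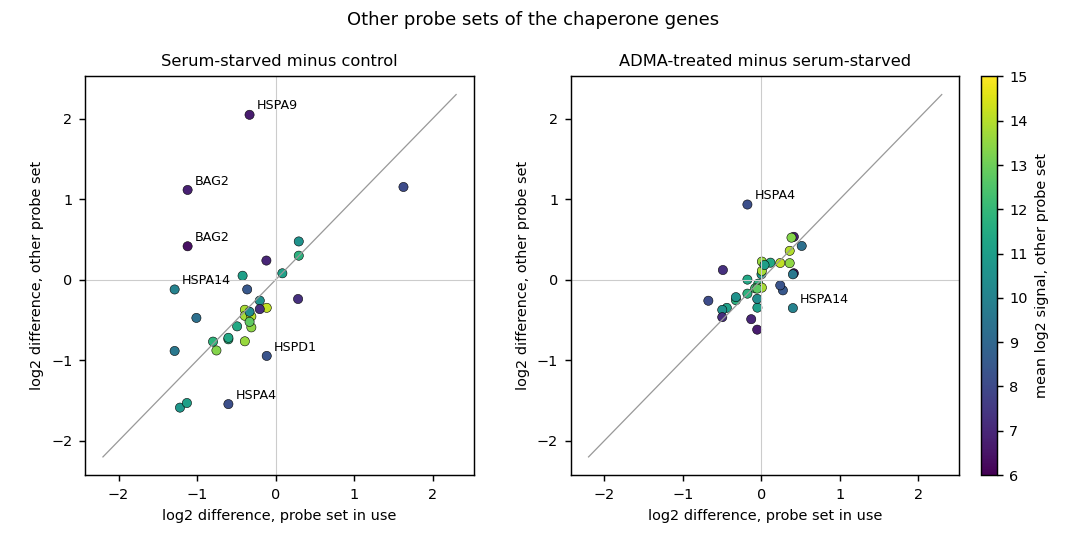
Log2 difference of each of the 34 other probe sets (vertical axis) against that of the probe set in use for the same gene (horizontal axis), serum starvation on the left and ADMA against serum starvation on the right, coloured by mean log2 signal; the line marks equal values. The labelled points, of HSPA9, BAG2, HSPA14, HSPA4 and HSPD1, lie away from the line.

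Other genes of the same pathways were taken from 6 lists, chosen like the 39 genes with earlier results of these data known. Of 126 listed genes 101 were tested. In serum starvation 55 fell (54.5%) and 19 rose (18.8%), against 27.3% and 30.3% of all genes tested, with a median log2 difference of -0.47 against 0.07. With ADMA against serum starvation 25 rose (24.8%) and 10 fell (9.9%), against 15.7% and 13.8%, with a median of 0.10 against 0.03. Between ADMA-treated and control cells 53 were lower (52.5%) and 15 higher (14.9%), against 23.2% and 26.6%, with a median of -0.38 against 0.07. No difference between lists was tested.

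Of the mitochondrial chaperone, import, motor and protease genes 17 of 23 fell (73.9%, against 27.3% of all genes tested) and 1 rose (4.35%, against 30.3%) in serum starvation, and 6 rose (26.1%, against 15.7%) and 2 fell (8.7%, against 13.8%) with ADMA. TIMM10, a small chaperone of the space between the mitochondrial membranes, fell by 1.71 in serum starvation and rose by 0.42 with ADMA, and TIMM13, another, fell by 1.47 and rose by 0.51. TIMM8B rose by 0.62 with ADMA, and HSCB, a J-domain protein of iron-sulfur cluster assembly, fell by 0.56. Of the HSP90 co-chaperone and R2TP genes 10 of 14 fell (71.4%, against 27.3%) and 2 rose (14.3%, against 30.3%) in serum starvation, and 6 rose (42.9%, against 15.7%) and 2 fell (14.3%, against 13.8%) with ADMA. PPP5C, a phosphatase that binds HSP90, fell by 2.03 ± 0.13 and RUVBL1, an ATPase of the R2TP complex, by 1.94 ± 0.09 in serum starvation (SE). FKBP5, the HSP90 immunophilin related to FKBP4, was 1.15 ± 0.09 higher with ADMA than in serum starvation (SE) after a difference of -1.70 in serum starvation, and CDC37L1, a relative of CDC37, fell by 0.99 with ADMA after a rise of 1.197.

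In the list of other HSP70, J-domain and HSP70 co-chaperone genes 12 of 30 rose (40%, against 30.3% of all genes tested) and 11 fell (36.7%, against 27.3%) in serum starvation. With ADMA 3 rose (10%, against 15.7%) and 5 fell (16.7%, against 13.8%), shares near those of all genes. DNAJB2, a neuronal J-domain protein, rose by 2.29 ± 0.13 and HSPBAP1, which binds HSPB1, by 1.84 ± 0.13 in serum starvation (SE). With ADMA, DNAJB2 fell by 0.81 and DNAJC7 rose by 0.63 relative to serum starvation. The stress-inducible HSPA1A and HSPA1B had no probe set of their own. Of the prefoldin, CCT-linked and tubulin cofactor genes 6 of 14 fell (42.9%, against 27.3%) and 1 rose (7.14%, against 30.3%) in serum starvation, with the largest decreases in TBCD (-1.09) and the prefoldin subunit VBP1 (-0.96), and 2 rose with ADMA (14.3%, against 15.7%), URI1 (0.39) and TBCD (0.35). VBP1 was 0.20 higher with ADMA, short of 1.2-fold. Of the small heat shock protein and heat shock factor genes only HSBP1, an inhibitor of HSF1, was called among 2 tested, at -0.97 in serum starvation and 0.34 with ADMA.

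The listed substrates of CCT were actins, tubulins and WD40 proteins, some of these of the cell cycle. Of the 18 genes 10 fell (55.6%, against 27.3% of all genes tested) and 3 rose (16.7%, against 30.3%) in serum starvation. With ADMA 7 rose (38.9%, against 15.7%) and 1 fell (5.56%, against 13.8%). ACTB, the only actin gene tested, differed by 0.03 in serum starvation, which was not called, and rose by 0.40 with ADMA. ACTG1 had no probe set of its own. The alpha-tubulin gene TUBA1A rose by 1.62 in serum starvation and by 0.49 with ADMA. CDC20, an activator of the anaphase-promoting complex that CCT folds, fell by 2.90 ± 0.10 in serum starvation and rose by 1.205 ± 0.09 with ADMA (SE). TUBA4A, an alpha-tubulin gene, fell by 1.91 in serum starvation and differed by 0.17 with ADMA, which was not called. TUBA1B, another alpha-tubulin gene, fell by 0.57 and rose by 0.61.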

How the data were processed

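RNA of 10 LoVo samples (3 control, 3 serum-starved, 4 ADMA-treated) was hybridized to Affymetrix HG-U133 Plus 2.0 arrays, 1 array a sample. The authors summarized the arrays with MAS 5.0, and the deposited values are linear intensities, 1 for each probe set, scaled to a common 2% trimmed mean of 500.1. Further steps and the genome build are not given in the sources used here. The number of arrays limits the precision. Of 54675 probe sets, 62 were controls, 41091 carried 1 gene symbol, 1801 several and 11721 none.

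From the deposited intensities log2 values were taken with no pseudocount. A gene was represented by its brightest probe set among those with 1 symbol. Genes whose mean reached a signal of 76.2, the probe sets' 50th percentile, were tested (12344 of 19775). The test was limma 3.58.1 (its lmFit and eBayes steps, with an intensity trend, R 4.3.3), fitted to the 3 groups together, with p-values adjusted by Benjamini-Hochberg over the genes tested. A call needed both an adjusted p below 0.01 and a 1.2-fold difference, the thresholds of the study's SAM analysis. The steps were tested on simulated data, for serum-starved against control cells. Of 50 seeded log2 differences each, 38% were recovered at 0.5, 72% at 1, 98% at 2 and 70% at -1. A gene that was not called may therefore still differ. Background was the 95th percentile of 24 Bacillus control probe sets on each array. Replicates of a group correlated at 0.984 to 0.987 and no arrays held identical values. Gene pairs were compared by exact permutation in SciPy 1.17.1, motifs were searched in Python 3.11.15 and figures drawn with matplotlib 3.10.9.

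The members, lists and tests were chosen with earlier results of these data known. Array values are given, by role, for the 2 tested genes that differ most in serum starvation and the 2 that differ most with ADMA (all genes of a role with 3 or fewer). Of each wider list the 2 called genes that differ most in either comparison are named, and ACTB and TUBA1A were added. Array values of HSP90AA1, HSPD1 and HSPB8 were added to complete a contrast or a role. The alternatives were quantile normalization, arrays centred on their medians, no filter or a 75th percentile filter, limma with no trend, array weights, fits to 2 groups only, a threshold of 0.05 with no fold, averaged probe sets, unshared probe sets, a pseudocount of 16, signals raised to background, a replicate block, and leaving out single arrays.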

Additional observations from a re-analysis of the deposited data

Results flagged for a closer look

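HSPD1, which encodes HSP60, had 1 ADMA array away from the other 3. ADMA replicate 4 gave a log2 signal of 14.84, against 14.64 to 14.67 in the others, and the gap was 0.845 of the group's range, above Dixon's critical value for 4 samples. Without that array the difference between ADMA-treated and serum-starved cells was 0.19 in place of 0.24, and HSPD1 was called in neither case. Of 34 genes examined in this way this was the only 1, and chance flags about 1 in 20 groups.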

How the results depend on the processing

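Of 1506 recomputed log2 differences of the genes whose array values are given by rule, 1410 kept their direction and side of the threshold, 35 lost the call, 37 gained it and 24 changed sign. Centring arrays on their medians left 1 chaperone gene rising in serum starvation (3 as deposited) and 2 with ADMA (10), and 9, 14 and 5 rising genes of the wider lists in serum starvation, with ADMA, and with ADMA against control (19, 25 and 15). All genes tested then split 9.79% higher and 49.4% lower for ADMA against control. Averaging all probe sets of a gene gave 6 rising chaperone genes and 6 falling wider genes with ADMA (10 and 10), and 2 higher chaperone genes for ADMA against control (1). Of all genes tested in that setting 12.7% rose and 8.58% fell with ADMA, and 24.4% were higher than control. An adjusted p under 0.05 with no fold gave 8 falling chaperone genes and 18 falling wider genes with ADMA (5 and 10). It also gave 2 higher chaperone genes for ADMA against control. Of all genes tested 20.6% then fell with ADMA and 33.4% were higher than control. Leaving out shared probe sets gave 3 chaperone genes falling with ADMA, where 13.2% of all genes tested fell. The 75th percentile filter gave 0 higher for ADMA against control because DNAJB4 was not tested, and in that limma fit 1 of 32 chaperone genes, DNAJB6, was higher at an unadjusted p under 0.05. Leaving out 1 array gave 23 to 24 falling and 3 rising chaperone genes in serum starvation, 8 to 11 rising and 4 to 6 falling with ADMA, and 22 to 24 lower for ADMA against control.

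The sign changed after centring in serum starvation for DNAJB1 (-0.30), BAG1 (-0.09), BAG3 (-0.33) and HSF1 (-0.10), with ADMA for STIP1 (-0.07), and for ADMA against control in DNAJB6 (-0.30) and HSP90AB1 (-0.45, called lower), and, outside that rule, in HSPD1 (-0.38, called lower). Quantile normalization turned HSP90AB1 (-0.01) and BAG1 (0.06) for ADMA against control. The mean of probe sets turned PFDN4 (0.29) and BAG2 (0.14) in serum starvation, HSPA4 (0.15) with ADMA, and HSP90AB1 (-0.14), PFDN4 (0.07), BAG1 (0.09) and BAG2 (0.48) for ADMA against control. Without shared probe sets HSPA4 turned to 0.93 with ADMA and BAG1 to 0.05 against control. With 1 array left out BAG3 ranged from -0.01 to 0.11 in serum starvation, and with ADMA STIP1 ranged from -0.04 to 0.29, PFDN2 from -0.14 to 0.05 and HSPB1 from -0.02 to 0.31. The cause of these changes was not tested beyond what each setting changes by construction.

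The deviations of same-numbered arrays correlated at -0.07 to 0.10, and 3 of 9 arrays matched their own number best. Replicate numbers thus gave little sign of pairing, which these values cannot exclude. With the replicate block the chaperone genes that fell and rose in serum starvation stayed at 24 and 3. Those that rose and fell with ADMA were 8 and 6, without CCT4 and HSPE1 and with BAG3. ADMA replicate 4 has no same-numbered array in the other groups, so the block also takes it out of every comparison. CCT4 and HSPE1 also lost their rises when ADMA replicate 4 alone was left out, so their loss is not particular to the block.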
